A study of Homo sapiens with 59 samples.

Results

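The aryl hydrocarbon receptor pathway was followed through 7 genes of the 19084 gene symbols measured: CYP1B1, CYP1A1, AHR, AHRR, ARNT, ARNT2 and TIPARP. They were taken by symbol. CYP1B1 was chosen by its measured fall in TPM between the 2 to 8 h and the 54 to 72 h exposures of these same libraries, among the largest of all genes, and the other 6 genes were added as its pathway. Its levels are therefore described without a test wherever the libraries of 2 to 8 h or 54 to 72 h enter a difference. All 7 genes passed the filter for testing, which asked for 1 TPM or more in 3 or more libraries, where TPM is a transcript level corrected for transcript length and scaled to the same total in each library. CYP1A1 passed it through 8 libraries, 4 of them at 2 to 8 h.

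Sequenced RNA came from 59 libraries of neural stem cells, all derived from the established human embryonic stem cell line WA09 (H9). All groups were given FGF8b at 200 ng per mL, then the GSK3 inhibitor CHIR99021, an activator of WNT signalling, and last retinoic acid for 4 days, so RNA was taken after CHIR99021 had ended. The groups differed in the hours of CHIR99021, from 2 to 24 h in steps of 2 h and from 30 to 72 h in steps of 6 h, which makes 20 exposures. The hours thus order separate groups and are not successive samplings of 1 culture. Peaks, rises and falls below run over exposures. Each exposure had libraries labelled A1, A2 and B1, apart from 48 h, which had A1 and A2 alone. FGF8b and retinoic acid were thus common to every group, no group lacked CHIR99021 among those analysed here, and a longer exposure was also a longer culture. All cells came from 1 line, and the labels do not say whether A1, A2 and B1 were separate cultures, so a p-value measures only the spread between libraries, which may be technical.

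AHR is a transcription factor of the bHLH-PAS family that chaperones hold in the cytoplasm until it binds a ligand, such as a dioxin, a polycyclic aromatic hydrocarbon or a product of tryptophan. It then enters the nucleus, pairs with ARNT and binds DNA at elements with the core GCGTG. Its best known targets are the monooxygenases CYP1A1 and CYP1B1, which oxidise xenobiotics and estrogens, the repressor AHRR, which competes for ARNT, and TIPARP, a mono-ADP-ribosyltransferase that dampens AHR. CYP1B1 can also oxidise retinol and is expressed in parts of the embryonic eye, hindbrain and neural crest.

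The core GCGTG was searched on both strands (CACGC on the reverse strand) in the 250 bases before the annotated start of each gene, because 4 of the genes are known AHR targets. RefSeq promoters of GRCh38.p14, which is another build than that of the expression values, matched 5 of the 7 genes with 8 entries, and 4 of the 8 entries held a match. Among all 35116 promoters of that table, 32.2% held at least 1 match and 10.2% held at least 2. The 3 target genes with an entry are shown here, since their levels differ from that of CYP1B1 below, with every match in capitals and the strand of the gene read 5′ to 3′. The CYP1A1 window is chr15:74725529-74725778 on the minus strand, that of AHRR is chr5:321464-321713 on the plus strand, and that of TIPARP is chr3:156674340-156674589 on the plus strand.
CYP1A1: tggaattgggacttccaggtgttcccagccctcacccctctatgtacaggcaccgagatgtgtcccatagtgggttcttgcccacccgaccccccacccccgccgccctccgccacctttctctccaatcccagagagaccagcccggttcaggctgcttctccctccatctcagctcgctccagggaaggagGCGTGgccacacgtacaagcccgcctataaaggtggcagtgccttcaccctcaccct
AHRR: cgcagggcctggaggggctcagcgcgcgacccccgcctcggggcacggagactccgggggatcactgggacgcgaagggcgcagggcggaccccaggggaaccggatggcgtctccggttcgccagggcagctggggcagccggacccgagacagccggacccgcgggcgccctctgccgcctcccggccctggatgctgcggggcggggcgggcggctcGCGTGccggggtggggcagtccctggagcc
TIPARP: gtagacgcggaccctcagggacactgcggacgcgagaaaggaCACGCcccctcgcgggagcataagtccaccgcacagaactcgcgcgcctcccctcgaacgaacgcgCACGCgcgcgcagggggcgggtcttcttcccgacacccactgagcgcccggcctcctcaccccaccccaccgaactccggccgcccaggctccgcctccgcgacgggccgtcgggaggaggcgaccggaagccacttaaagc
CYP1A1 held 1 match, 57 bases before its start, and AHRR held 1 match, 30 bases before the start of its first entry. The second AHRR entry (chr5:322360-322609) held 2 matches, and the first TIPARP entry held 2, both on the reverse strand. The windows of AHR and ARNT and the other TIPARP entries held none. CYP1B1 and ARNT2 had no entry, so they were not searched. A match describes letters only and is not a binding site.

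The number of genes reaching 1 TPM had a median of 12594 per library and lay between 9348 and 13085. Under 10000 such genes were found in the libraries 72 h A2, 42 h B1 and 4 h B1, and at least 11004 in the others. TPM keep no read depth, so no counting interval is given. All 10 neural progenitor markers examined, among them SOX2, PAX6 and NES, averaged above 1 TPM in every window of exposures, and their summed level had a median between 2224 and 2850 TPM. Late against early (54 to 72 h minus 2 to 8 h), 7 of the 10 were higher and 2 lower, with a median log2 difference of 1.03. Of all genes tested, 14.3% were higher and 15.8% lower. SOX1 was higher by 3.08 and SOX2 by 2.12, while PAX6 and CDH2 were lower (limma adjusted p = 3.8e-11, 9.0e-08, 1.7e-06 and 1.3e-09). CDH2 made up the most of the sum, with a mean of 2092 TPM early and 1193 TPM late. The part of these shifts in the results was not tested. Windows are 2 to 8, 10 to 16, 18 to 24, 30 to 48 and 54 to 72 h, each with 4 exposures and 12 libraries, or 11 libraries in 30 to 48 h. In bulk RNA, fewer cells that express a gene and less RNA per cell cannot be told apart.

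CYP1B1 was the member with the highest level and the widest range. It was moderate after the shortest exposures, peaked after 10 h of CHIR99021 at 560 ± 69.1 TPM (SD, n = 3), and was nearly gone after 54 h or more. At 2 h the A1, A2 and B1 libraries held 108, 87.3 and 83.2 TPM. At 6 h they held 279, 287 and 257 TPM. At 10 h they held 523, 517 and 639 TPM, and 10 h was the highest exposure in each of the 3 labels. By mean level CYP1B1 ranked 1984 of 19084 symbols at 2 h and 251 at 10 h.

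The decline came in 2 stretches with a flatter one between them. The mean at 12 h was 0.694 of that at 10 h and the mean at 16 h 0.745 of that at 14 h, in both cases without overlap. At 24 h the libraries held 186, 167 and 213 TPM, and at 30 h 169, 162 and 232 TPM, so these exposures overlapped. At 36 h they held 105, 89.1 and 141 TPM, all below the 30 h libraries. At 42 h they held 44.6, 28.7 and 20.7 TPM, again all lower. The pair at 48 h held 16.7 and 20.9 TPM, within the range of 42 h. At 54 h the values were 1.89, 0.350 and 5.46 TPM, and at 72 h 0.50, 0 and 1.86 TPM. CYP1B1 ranked 5776 at 42 h and 12891 at 72 h.

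**Figure D1:**
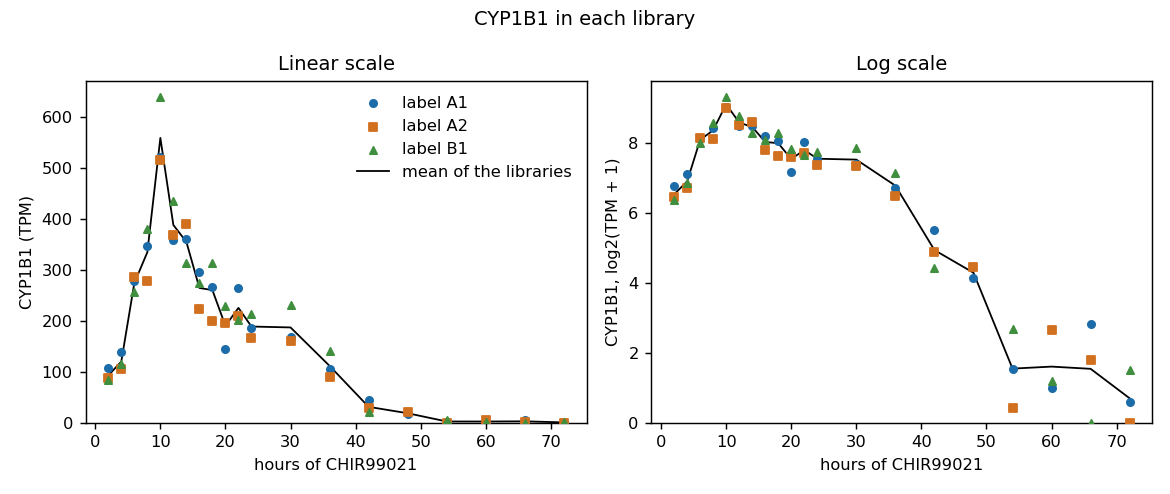
CYP1B1 level in TPM against hours of CHIR99021, on a linear and a log2(TPM + 1) scale, with 1 point per library and a line through the mean of each exposure (n = 3, and 2 at 48 h). The mean is highest at 10 h (560 TPM) and is 0.787 TPM at 72 h.

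Ordered by mean level, the exposures ran 10, 12, 14, 8, 6, 16, 18, 22, 20, 24, 30, 4, 36, 2, 42, 48, 66, 54, 60 and 72 h. Of the 19 pairs of neighbours in this order, 4 did not overlap: 10 and 12 h, 30 and 4 h, 2 and 42 h, and 48 and 66 h. All other neighbours overlapped. For each of the other 6 members, all 19 pairs of neighbours in the order of their own levels overlapped. CYP1B1 was chosen for its large fall, and no such count was made over all genes, so these counts are descriptions only. The mean at 6 h was 2.28 times that at 4 h, and the mean at 10 h was 1.67 times that at 8 h. The mean at 36 h was 0.597 of that at 30 h, the mean at 42 h 0.280 of that at 36 h, and the mean at 54 h 0.137 of that at 48 h. In none of these 5 steps did the libraries overlap, nor in those from 10 to 12 h and from 14 to 16 h.

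Taken along each label separately, CYP1B1 reached 6.15 ± 1.44 times its 2 h level at the peak (SD, n = 3 labels). Interpolated between exposures, it crossed 50% of its peak at 6.15 ± 0.750 h on the way up and at 15.9 ± 2.10 h on the way down. It crossed 10% at 40.3 ± 0.840 h and 1% at 52.8 ± 0.374 h. B1 has no 48 h library, so its 1% crossing was interpolated from 42 to 54 h and those of A1 and A2 from 48 to 54 h. The labels do not say whether libraries of the same label belong together, so these are summaries of the spread and not separate courses.

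By window, CYP1B1 ranged from 83.2 to 381 TPM at 2 to 8 h with a median of 198 TPM, and from 224 to 639 TPM at 10 to 16 h with a median of 366 TPM. At 18 to 24 h it lay between 145 and 315 TPM with a median of 206 TPM, and at 30 to 48 h between 16.7 and 232 TPM with a median of 89.1 TPM. At 54 to 72 h it was 0 to 6.11 TPM with a median of 1.57 TPM, and 2 of the 12 libraries were listed at 0. The 54 to 72 h libraries overlapped with no other window. The difference by which CYP1B1 was picked, 54 to 72 h minus 2 to 8 h, was −6.13 on the log2(TPM + 1) scale, on which changes of low genes are understated. The 10 to 16 h minus 2 to 8 h difference was 1.07 and the 54 to 72 h minus 30 to 48 h difference −4.54, both also without a test.

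Comparisons whose differences use only libraries from 10 to 48 h were tested for CYP1B1. Their standard errors still came from the fit of all libraries. CYP1B1 was chosen for its fall across the whole range, which favours a fall within it, so these p-values are not independent support. Between the 10 to 16 h and the 18 to 24 h windows it fell by 0.83 on the log2 scale (SE 0.21, limma adjusted p = 0.011), with all 12 later libraries below the median of the earlier ones and 8 below the lowest. In this step 6.34% of the 15305 genes tested passed, 3.6% as higher and 2.74% as lower. The call was lost with a pseudocount of 0.1 (adjusted p = 0.306) or 0.5 (0.057) and without the libraries labelled A1 (0.218) or A2 (0.129), with differences between −0.83 and −0.79. Between the 18 to 24 h and the 30 to 48 h windows it fell by 1.84 (SE 0.22, limma adjusted p = 2.4e-07), with 10 of 11 later libraries below the earlier median. Here 1.56% of genes passed, 0.451% as higher and 1.11% as lower, and the CYP1B1 call held in every alternative tried. Neighbouring comparisons share a window, so they are not independent of each other.

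AHR, the receptor itself, was a low gene that was highest after the shortest exposures. At 2 h the A1, A2 and B1 libraries held 10.2, 4.37 and 11.5 TPM, at 8 h 8.47, 14.6 and 7.58 TPM, and at 10 h 6.32, 4.03 and 3.55 TPM. At 36 h they held 1.50, 1.58 and 1.27 TPM, and at 72 h 2.26, 0 and 0.280 TPM. All 3 AHR values at 10 h, the exposure of the CYP1B1 peak, were thus lower than all 3 at 8 h.

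Across windows AHR ranged from 4.37 to 14.6 TPM (median 8.03 TPM) at 2 to 8 h, from 2.25 to 6.32 TPM (3.55 TPM) at 10 to 16 h, and from 0.970 to 8.79 TPM (2.64 TPM) at 18 to 24 h. At 30 to 48 h it lay between 0 and 3.15 TPM (1.37 TPM), and at 54 to 72 h between 0 and 6.20 TPM (1.46 TPM). Only the 2 to 8 h and 30 to 48 h windows did not overlap. Between the 2 to 8 h and the 54 to 72 h windows AHR fell by 1.83 (SE 0.28, limma adjusted p = 8.7e-07), with all 12 late libraries below the early median and 10 below the lowest early one. It changed over the course (spline F-test in limma, adjusted p = 2.9e-07). The fall to 54 to 72 h held in every alternative tried. Between 2 to 8 h and 10 to 16 h it fell by 0.92 (SE 0.28, limma adjusted p = 0.031). That call was lost with a pseudocount of 0.1 or 0.5, without any 1 of the 3 labels, and without any 1 of 8 single libraries, for which the adjusted p was 0.050 to 0.063. These were the 2 h A1, 2 h B1, 6 h B1, 8 h A2, 10 h B1, 12 h A1, 14 h A2 and 16 h A1 libraries. The next step down, 30 to 48 h minus 18 to 24 h, was −0.69 and did not pass (limma adjusted p = 0.276).

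**Figure D2:**
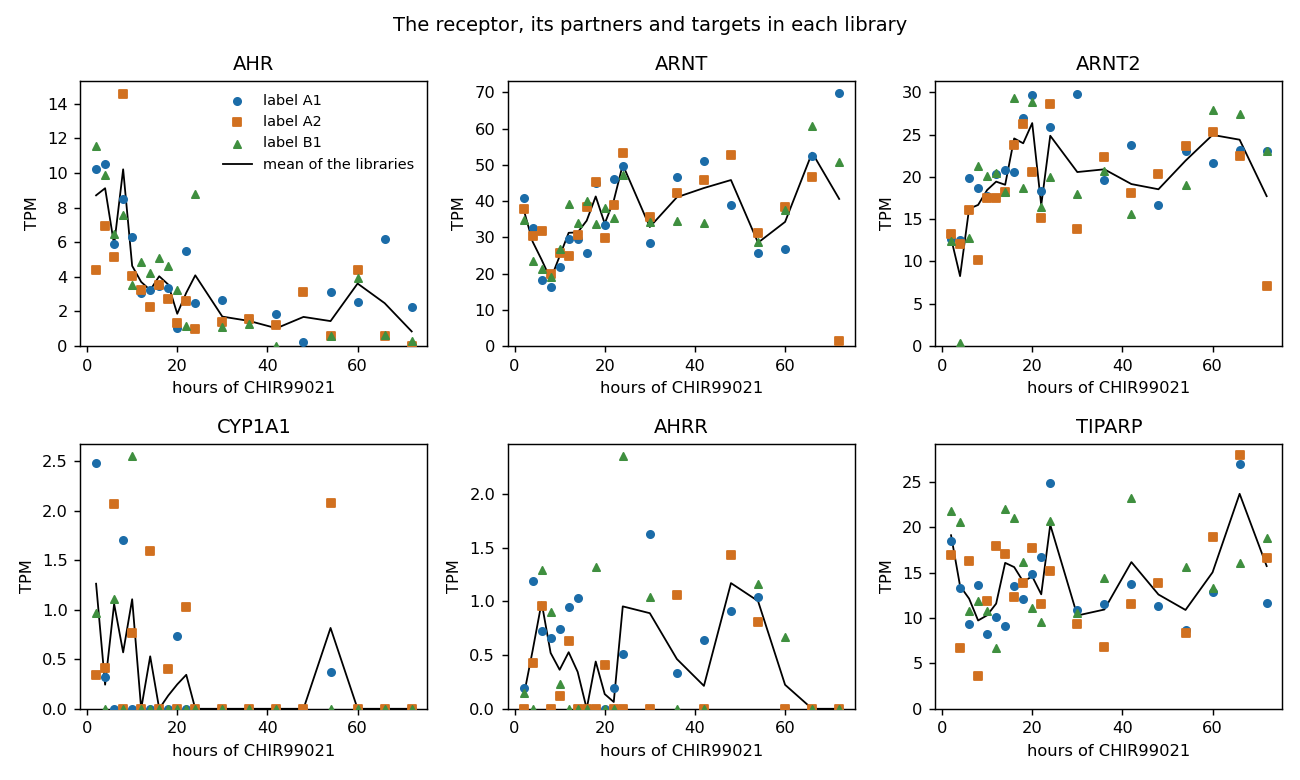
Level in TPM of the 6 other members against hours of CHIR99021, with 1 point per library and a line through the mean of each exposure (n = 3, and 2 at 48 h). AHR is highest at 2 to 8 h, CYP1A1 and AHRR stay under 3 TPM, and the 72 h A2 library holds 1.45 TPM of ARNT.

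ARNT, the nuclear partner of AHR, and ARNT2, its paralog with a known role in neural tissue, were both present throughout. ARNT was at 40.8, 37.8 and 34.7 TPM in the A1, A2 and B1 libraries at 2 h and at 16.4, 19.8 and 19.1 TPM at 8 h, its lowest exposure by mean. At 24 h it was at 49.6, 53.2 and 47.3 TPM. The 8 h libraries were all lower than those of 2 h and of 24 h. At 72 h ARNT was at 69.7, 1.45 and 50.7 TPM, and the low value came from the A2 library with under 10000 genes.

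With every library kept, ARNT did not pass over the course (limma adjusted p = 0.136) or in 54 to 72 h minus 2 to 8 h, where its mean was 27.2 ± 8.41 TPM early and 39.2 ± 18.3 TPM late (SD, n = 12 each; log2 difference 0.28, adjusted p = 0.462). Without the 72 h A2 library the limma adjusted p was 3.2e-06 over the course and 4.3e-06 late against early, with a difference of 0.66. Quantile normalization (0.017 and 0.041) and leaving out all A2 libraries (0.0007 and 0.0009) also gave both calls by limma's adjusted p. Without the same library ARNT also passed in 18 to 24 h minus 10 to 16 h (difference 0.43, limma adjusted p = 0.006, against 0.421 with it). That library is in neither of these windows, so leaving it out changed the p-value and not the difference. In that step all 12 later libraries lay above the earlier median of 29.6 TPM.

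ARNT2 was at 12.6, 13.3 and 12.4 TPM at 2 h, at 12.5, 12.0 and 0.310 TPM at 4 h and at 17.8, 17.5 and 20.1 TPM at 10 h. The 10 h libraries were all higher than those of 2 h, and the 4 h B1 value is from another library with under 10000 genes. Between the 2 to 8 h and the 54 to 72 h windows ARNT2 rose by 0.84 (SE 0.22, limma adjusted p = 0.003), from 13.5 ± 5.44 to 22.2 ± 5.33 TPM, and 11 of 12 late libraries were above the early median. Between 2 to 8 h and 10 to 16 h it rose by 0.76 (SE 0.22, limma adjusted p = 0.026), with all 12 later libraries above the earlier median. Without the libraries labelled B1 the late rise was 0.49 and did not pass (limma adjusted p = 0.067), and for 72 h against 2 h alone it was 0.28 (0.730). The rise to 10 to 16 h was lost without any 1 label, with a pseudocount of 0.1, and without the 6 h B1 or 8 h A2 library (limma adjusted p = 0.051 to 0.058). The change over the course passed (limma adjusted p = 0.003) but not without A1 (0.055).

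Mean TPM of ARNT was 2.02, 1.50, 1.799, 2.03 and 1.76 times that of ARNT2 in the 5 windows in order of exposure. The ratio of ARNT to AHR was 3.21, 7.82, 13.1, 27.9 and 18.7. The ratio of CYP1B1 to AHR was 24.3, 101, 68.8, 64.6 and 1.04. CYP1B1 was the highest member in all 12 libraries of each of the first 3 windows, in 6 of 11 at 30 to 48 h and in 0 of 12 at 54 to 72 h. These ratios are descriptions and were not tested.

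CYP1A1, the classical AHR target, was at or near 0. It was listed at 0 in 43 of 59 libraries, reached 1 TPM in 8 and was never above 2.55 TPM, in the 10 h B1 library. At 10 h, where CYP1B1 peaked, the A1, A2 and B1 libraries held 0, 0.770 and 2.55 TPM. It was listed at 0 in all 11 libraries of 30 to 48 h, in 4 of 12 at 2 to 8 h, and in 10 of 12 at 54 to 72 h. CYP1A1 passed over the course (limma adjusted p = 0.030), and this was lost with quantile normalization (0.231), without A1 (0.281) or B1 (0.203), with an F-test over the 20 exposures (0.234), and without any 1 of the 2 h A1, 2 h B1, 6 h A2, 6 h B1 and 8 h A1 libraries (0.052 to 0.108). Late against early, the difference was −0.51 and did not pass (limma adjusted p = 0.053). It did pass without any 1 of 10 libraries (limma adjusted p = 0.014 to 0.048): 2 h A2, 4 h B1, 6 h A1, 8 h A2, 8 h B1, 10 h A1, 10 h B1, 14 h A2, 22 h A2 and 54 h A2. The 10 h A1, 10 h B1, 14 h A2 and 22 h A2 libraries are in neither window, so for them the difference stayed at −0.51. It also passed with a pseudocount of 0.1 (limma adjusted p = 0.025) or 0.5 (0.041) and with median-ratio scaling (0.046), among other settings. Its paralog CYP1A2 was above 0 in 48 libraries, and how reads were divided between the pair was not tested, so the CYP1A1 value is uncertain.

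AHRR and TIPARP are the feedback genes of the pathway, and neither passed a test in the main setting. AHRR was listed at 0 in 28 of 59 libraries, reached 1 TPM in 11, and was highest at 2.35 TPM in the 24 h B1 library. At 10 h it held 0.74, 0.12 and 0.23 TPM. It did not pass over the course (limma adjusted p = 0.192) or late against early (difference −0.25, adjusted p = 0.359). AHRR overlaps the readthrough gene PDCD6-AHRR in RefSeq, so its value is uncertain.

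TIPARP was above 0 in all 59 libraries, between 3.62 and 27.97 TPM with a median of 13.6 TPM. The A1, A2 and B1 libraries held 8.26, 11.9 and 10.8 TPM at 10 h and 26.99, 27.97 and 16.06 TPM at 66 h, the exposure with the highest mean. Its lowest mean was at 8 h. TIPARP did not pass over the course (limma adjusted p = 0.226) or late against early (difference 0.28, adjusted p = 0.316). Antisense transcripts are annotated over TIPARP and ARNT2, and no source used here gives the strand setting of the counting.

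Apart from CYP1B1, 3 of 6 members passed over the course, where 36.8% of all tested genes did, and 2 of 6 passed late against early, where 30.1% did (14.3% higher and 15.8% lower). In 10 to 16 h minus 2 to 8 h 2 of 6 passed, against 7.47% of genes (3.8% higher and 3.67% lower). With every library kept, none of the 6 passed in 18 to 24 h minus 10 to 16 h, where 6.34% of genes did. None passed in 30 to 48 h minus 18 to 24 h, where 1.56% of genes did. None passed in 54 to 72 h minus 30 to 48 h, where 5.57% of genes did (2.86% higher and 2.7% lower). These counts are near the background. At an unadjusted p under 0.05 in limma, 0, 1 and 0 of the 6 passed in these 3 steps. The share of all genes at that unadjusted p is not given here.

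**Figure D3:**
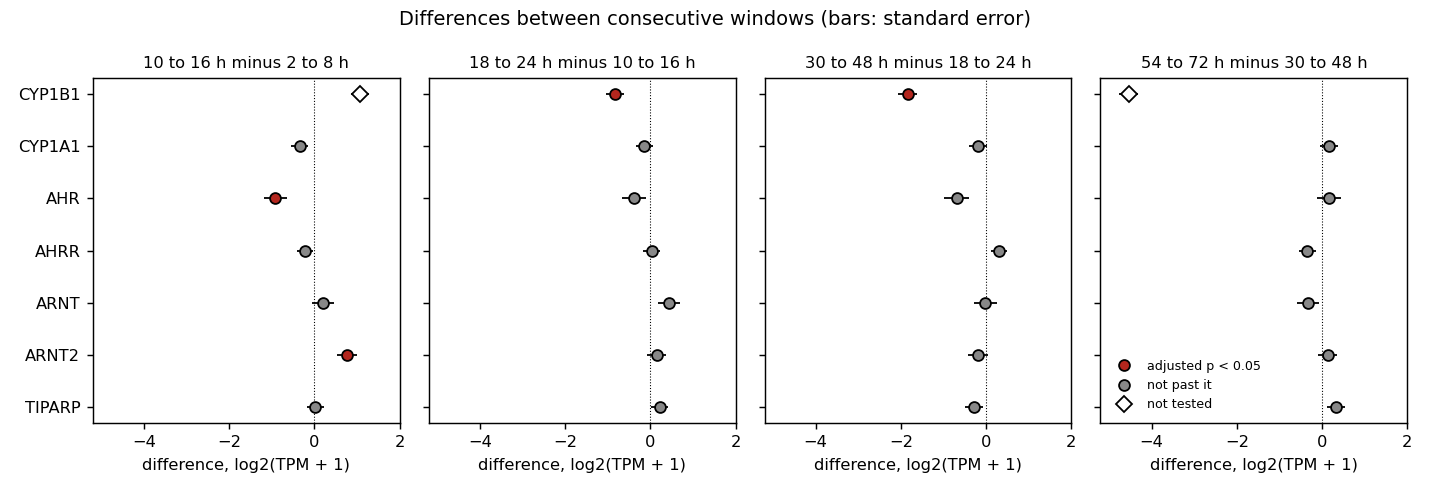
Differences between successive windows on the log2(TPM + 1) scale for the 7 members, with bars at 1 standard error. Red points passed at an adjusted p under 0.05 in limma, grey points did not, and open diamonds are CYP1B1 values given without a test: CYP1B1 fell by 0.83 and 1.84 in the middle steps, AHR fell by 0.92 and ARNT2 rose by 0.76 in the first.

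The genes whose course was most like that of CYP1B1 were found among 13137 genes with a highest mean of at least 5 TPM, by Pearson correlation of the 20 exposure means of log2(TPM + 1). They were POMC (r = 0.97), a precursor of peptide hormones, IGSF11 (0.97), a cell adhesion molecule, CALB1 (0.96), a calcium-binding protein, MAF (0.96), a bZIP transcription factor, and DPP4 (0.95), a cell surface peptidase. All share the same libraries and were chosen for the likeness. POMC, IGSF11 and MAF were highest at 10 h like CYP1B1, at 1169, 81.0 and 661 TPM, while CALB1 and DPP4 were highest at 20 h, at 611 and 115 TPM. At 72 h POMC was at 0.200 ± 0.346 TPM and MAF still at 48.0 ± 4.80 TPM (SD, n = 3). Among the members, the course of CYP1B1 correlated at r = 0.55 with AHR, 0.26 with CYP1A1, 0.12 with AHRR, −0.10 with ARNT, −0.12 with ARNT2 and −0.35 with TIPARP, and that of ARNT at 0.58 with TIPARP, over the same 20 means.

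**Figure D4:**
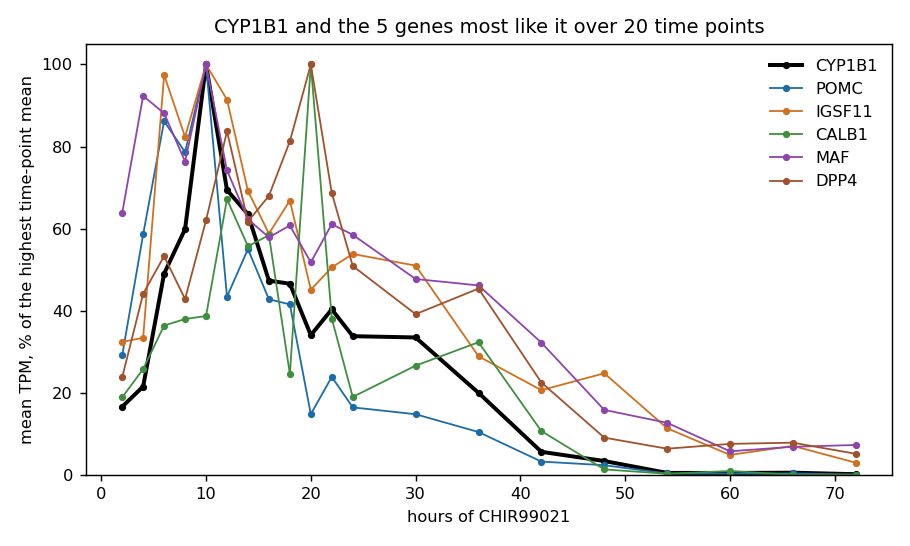
Mean TPM at each exposure as a percent of the highest mean, for CYP1B1 and the 5 genes most like it, against hours of CHIR99021. POMC, IGSF11 and MAF peak with CYP1B1 at 10 h and CALB1 and DPP4 at 20 h, and at 72 h MAF remains at 7.26% of its peak.

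The cytoplasmic partners that hold AHR ready were abundant. Of 4 such genes, 3 rose late against early and 0 fell, with a median difference of 0.36 against −0.04 over all genes tested. Over all genes tested 14.3% rose and 15.8% fell. HSP90AA1, the inducible cytosolic HSP90, went from 1184 ± 212 to 1692 ± 584 TPM (SD, n = 12 each; difference 0.45, limma adjusted p = 1.5e-05), with 11 of 12 late libraries above the early median. Its mean was highest at 10 to 16 h, at 2066 ± 173 TPM, in every library above those of 2 to 8 h (0.82, limma adjusted p = 2.2e-10), and it fell by 0.53 in the next step (adjusted p = 6.6e-06). PTGES3, the p23 co-chaperone, rose by 0.47 (limma adjusted p = 1.9e-06) and HSP90AB1 by 0.27 (adjusted p = 0.008). For 72 h against 2 h alone none of the 4 passed, and without A1 or without B1 HSP90AB1 did not pass (limma adjusted p = 0.102 and 0.138).

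Of 11 other genes known to respond to AHR, 9 were tested, 0 rose and 2 fell late against early, with a median of −0.47. Over all genes tested 15.8% fell, so the count is near the background. It was 0 without A1, 0 without A2 and 4 without B1. NQO1, a quinone reductase, went from 18.7 ± 17.5 to 8.83 ± 7.57 TPM (difference −1.34, limma adjusted p = 0.026), but 4 of 12 late libraries were above the early median. NFE2L2, the regulator of antioxidant genes, went from 34.1 ± 13.4 to 23.6 ± 11.7 TPM (−0.59, limma adjusted p = 0.034). Without the 72 h A2 library neither passed (limma adjusted p = 0.052 for NQO1 and 0.091 for NFE2L2), nor did NFE2L2 without the 4 h B1 library (0.091). Neither passed without A1 or without A2. SLC7A5, an amino acid transporter, was at 71.5 ± 21.0 TPM early and 59.7 ± 36.5 TPM late (−0.47, limma adjusted p = 0.051). It passed as lower without the 72 h A2 library (limma adjusted p = 0.048), the 42 h B1 library (0.042), the libraries labelled B1 (0.045) or the 6, 30 and 54 h exposures (0.007). The 42 h B1 library is in neither window, so the SLC7A5 difference stayed at −0.47 without it. UGT1A1 and SERPINB2 were listed at 0 in every library. UGT1A6, among the 9 tested, would not have reached the filter without the 2 to 8 h libraries (late against early −0.23, limma adjusted p = 0.264). In 10 to 16 h minus 2 to 8 h, where 3.8% of all genes rose, 0 of the 9 rose in limma and 0 were higher at an unadjusted p under 0.05, which is near the background. SLC7A5 fell by 0.80 in that step (limma adjusted p = 0.003), and this was lost without A2 (0.162) or B1 (0.082). In 54 to 72 h minus 30 to 48 h, 1 of the 9 rose and 0 fell, where 2.86% of all genes rose and 2.7% fell. The gene that rose was SLC7A5, by 0.94 (limma adjusted p = 0.0008), and this was lost without B1 (0.058).

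SLC7A5 and NFE2L2 were higher over 30 and 54 h together than over the exposures on either side, exposures that earlier results of these data set apart. The local difference was 1.45 for SLC7A5 (limma adjusted p = 9.0e-06) and 1.12 for NFE2L2 (0.003), where 14.3% of genes passed (9.77% higher and 4.53% lower). Since these exposures were chosen from the same data, the p-values here are not independent support. The NFE2L2 call was lost without A1 (limma adjusted p = 0.079), without A2 (0.142) and for 30 h alone (0.198). None of the 6 tested members passed there in limma with every library kept, nor at an unadjusted p under 0.05. ARNT passed without the 72 h A2 library, which does not enter this comparison (limma adjusted p = 0.013, with an unchanged difference of −0.45). The CYP1B1 value was −0.52, a description, and 0.36 for 30 h alone.

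Among 12 other bHLH-PAS factors 9 were tested, and 0 rose and 2 fell late against early, with a median of −0.36, beside 14.3% and 15.8% of all genes. HIF1A, the hypoxia factor that also pairs with ARNT, went from 271 ± 40.2 to 193 ± 51.3 TPM (−0.55, limma adjusted p = 0.001), with all 12 late libraries below the early median. EPAS1 went from 1.84 ± 2.48 to 0.578 ± 0.852 TPM (−0.58, limma adjusted p = 0.029), and did not pass without the 72 h A2 library (0.052), without A1 or A2, with a pseudocount of 0.1 or 0.5, or with quantile normalization. Without the 4 h B1 library 4 factors fell, and without the 3 libraries with under 10000 genes 1 factor rose and 4 fell. The clock factor CLOCK did not pass (−0.10, limma adjusted p = 0.638). NPAS2, SIM1 and SIM2 were below the filter.

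Of 4 enzymes that serve P450 reactions, 0 passed late against early (median 0.17), where 30.1% of all genes tested passed. Among them was POR, which passes electrons to P450 enzymes, at 89.4 ± 23.6 TPM early and 108 ± 32.9 TPM late (0.25, limma adjusted p = 0.220). At an unadjusted p under 0.05 in limma, 0 of the 4 passed, and without the 72 h A2 library POR rose by 0.37 (adjusted p = 0.031). CYB5A, cytochrome b5, went the other way in other settings: it fell by 1.05 without B1 (limma adjusted p = 0.015) and by 0.75 without the 3 libraries with under 10000 genes (0.007). With every library its difference was −0.44 (limma adjusted p = 0.535), with all 12 late libraries below the early median. Of 18 other P450 enzymes 14 were tested and 0 passed late against early (median 0.13), also at an unadjusted p under 0.05 in limma. CYP2R1 and CYP2U1 were the highest of them, at 22.9 ± 20.2 and 23.3 ± 7.23 TPM early.

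Tryptophan and kynurenine enzymes, only some of which make candidate AHR ligands, went in both directions late against early. Of 10 tested genes 2 were higher and 4 lower (median −0.21), beside 14.3% and 15.8% of all genes tested. Without B1, without the 4 h B1 library or without the 3 libraries with under 10000 genes, 0 were higher and 4 lower. QPRT, which uses quinolinate, went from 199.6 ± 33.5 to 130.3 ± 46.0 TPM (−0.67, limma adjusted p = 0.0008). KMO, kynurenine 3-monooxygenase, went from 1.798 ± 1.31 to 0.0383 ± 0.0899 TPM (−1.28, limma adjusted p = 5.7e-05), with all 12 late libraries below the early median. HAAO (−1.23, limma adjusted p = 0.012) and the formamidase AFMID (−0.99, adjusted p = 0.006) also fell. The HAAO call was lost without A1 (limma adjusted p = 0.101) or A2 (0.131), and for 72 h against 2 h alone QPRT, KMO and AFMID did not pass (0.158, 0.104 and 0.261). The aminotransferases AADAT (0.77, limma adjusted p = 0.040) and CCBL2 (0.31, adjusted p = 0.040) rose, and neither passed without the 4 h B1 library (limma adjusted p = 0.128 and 0.111). Of the enzymes that open the tryptophan ring, TDO2 and IDO2 were listed at 0 in every library. IDO1 was above 0 in 32 of 59, with a mean of 1.13 TPM early and 2.56 TPM late, and did not pass (0.24, limma adjusted p = 0.714).

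**Figure D5:**
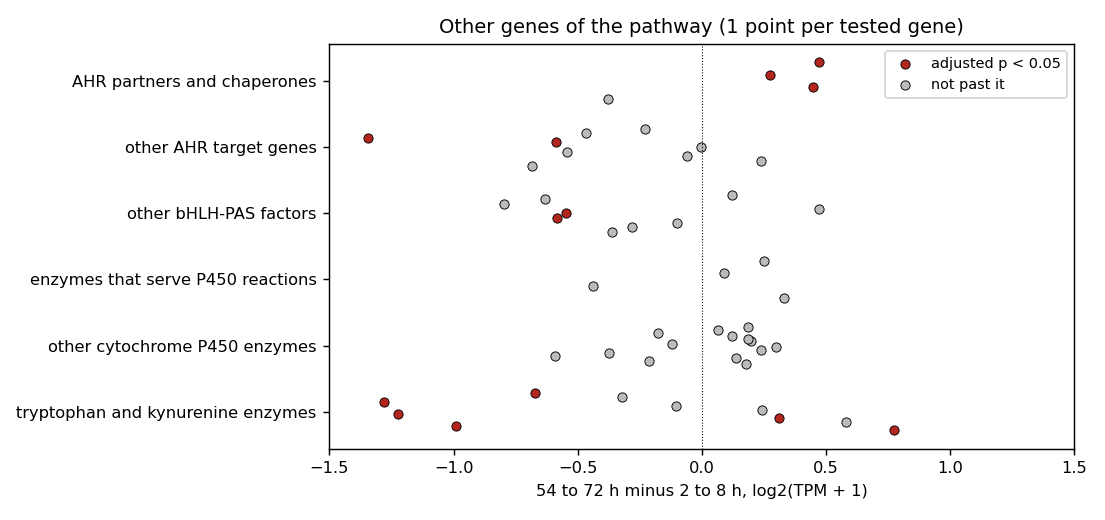
Log2(TPM + 1) differences, 54 to 72 h minus 2 to 8 h, for the genes of each pathway list, 1 point per gene tested, with genes past an adjusted p of 0.05 in limma in red. Chaperones have 3 higher genes, other AHR targets and bHLH-PAS factors 2 lower genes each, and the tryptophan list 2 higher and 4 lower. Of all genes tested, 14.3% were higher and 15.8% lower.

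Markers of other cell types moved over the same exposures. Late against early, 15.8% of all genes tested were lower. All 10 epithelium markers, among them CDH1 and EPCAM, were lower at 54 to 72 h than at 2 to 8 h, and their summed level lay between 1416 and 3861 TPM at 2 to 8 h and between 689 and 1810 TPM at 10 to 16 h. It lay between 465 and 1269, 280 and 731, and 484 and 796 TPM in the following windows. CLDN7 and GRHL2 were listed at 0 throughout 30 to 72 h, and ESRP1 throughout 54 to 72 h. All 9 tested endoderm markers of 10 were lower too, with summed ranges of 226 to 677, 149 to 416, 103 to 193, 96.9 to 169 and 46.8 to 148 TPM in the same windows, and SOX17 was listed at 0 in every library. Both sums were highest at 2 to 8 h, as AHR was, whereas CYP1B1 was highest at 10 to 16 h. Their part in the levels of AHR and CYP1B1 was not tested.

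Late against early, 14.3% of all genes tested were higher and 15.8% lower. Of 9 tested mesenchyme markers 5 were higher and 1 lower. TWIST1, among the 9, would not have reached the filter without the 54 to 72 h libraries. Mesenchyme sums lay between 435 and 654, 308 and 734, 481 and 940, 515 and 912, and 487 and 1019 TPM in the 5 windows. DCN was listed at 0 from 10 to 72 h. Among the neural crest markers 3 were higher and 1 lower. FOXD3 reached the filter only through the 2 to 8 h libraries and is not counted. The crest list had sums between 23.3 and 84.4 TPM at 2 to 8 h, between 18.4 and 53.2 TPM at 10 to 16 h, and between 34.6 and 99.3, 58.2 and 122, and 71.1 and 199 TPM in the windows after, and SOX10 and FOXD3 were listed at 0 throughout 10 to 16 h. Among the endothelium markers 1 was higher and 1 lower, and KDR, which would not have reached the filter without the 54 to 72 h libraries, is not counted. The endothelium list had sums between 15.6 and 47.5 TPM at 2 to 8 h, between 7.70 and 24.6 TPM at 10 to 16 h, and between 8.39 and 38.95, 8.67 and 37.6, and 3.52 and 43.1 TPM in the windows after. The neural crest and mesenchyme sums had their lowest medians at 10 to 16 h, at 31.75 and 386 TPM. That of the endothelium list was lowest at 18 to 24 h, at 15.1 TPM. The part of these markers in the results was not tested.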

How the data were processed

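The authors deposited TPM for each gene symbol and library, in 1 table of 59 libraries. RSEM 1.2.3, Bowtie 0.12.8, CASAVA 1.8.2 and the hg19 build are named in the submitters' processing notes, and no source used here names the gene annotation. Per the labels' protocols, oligo-dT selected RNA was sequenced. The TPM of a library summed to 999997 to 1000001, so depth is unknown. Samples were grouped by the hours of CHIR99021 in the labels.

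The log2(TPM + 1) values were fitted with limma 3.58.1 (R 4.3.3) with an intensity trend. Genes reaching 1 TPM in 3 or more libraries were tested, 15305 in all, and p-values were adjusted over them by Benjamini and Hochberg's method with a threshold of 0.05. Every library entered a fit of 20 exposure means with 39 residual df, from which windows were contrasted, and a natural spline of hours with 4 df. The local comparison set 30 h and 54 h against the exposures on either side. The scripts were tested on simulated data.

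The members and lists were chosen with earlier results of these data known. All members were named. Some genes that the naming rules pick are not reported here. From each list up to 4 genes were named, those with the largest late minus early difference among those past the threshold, together with examples that missed the threshold or were listed at 0. SLC7A5 in single steps, HSP90AA1 in single steps, POR, CYB5A, IDO1, CYP1A2, CYP2C8, CYP7B1, AADAT, CCBL2 and single markers were named after their values were seen. Alternatives varied the pseudocount, filter, scaling, replicate block, spline and windows and left out labels, libraries or time points, and those for single libraries, for 30 h or 54 h alone and for the lists were added after seeing the data. Motifs and figures were made in Python 3.11.15 with pandas 2.3.3 and matplotlib 3.10.9.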

Additional observations from a re-analysis of the deposited data

How the results depend on the processing

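Of the member values recomputed under the alternatives, 712 kept their direction and side of the threshold, 20 gained and 20 lost a call, 22 changed sign and 13 untested CYP1B1 values moved by more than the spread between labels. The fall of AHR late against early and that of CYP1B1 between 18 to 24 h and 30 to 48 h held throughout. TPM keep no depth, so no limit of detection is known for CYP1A1 and AHRR, and fold changes of low genes are understated.

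Leaving out 1 label in turn gave 3232 to 5291 genes over the course (5629 with all) and 1 to 4 members. It gave 2956 to 4227 genes late against early (4606) and 1 to 3 members, 425 to 782 in 10 to 16 h minus 2 to 8 h (1143) with 0 members, 261 to 878 in 18 to 24 h minus 10 to 16 h (971), 82 to 141 in 30 to 48 h minus 18 to 24 h (239), 328 to 727 in 54 to 72 h minus 30 to 48 h (852) and 759 to 1826 in the local comparison (2189). Without the 3 libraries with under 10000 genes the 4 successive window steps and the local comparison gave 1789, 2008, 466, 1331 and 3736 genes, in order of exposure. Members called then numbered 4 late against early (2 with all), 1 in 18 to 24 h minus 10 to 16 h and 1 in the local comparison. Late against early, the gene count in that setting stayed within 1.5 times the 4606 with all, and all alternatives gave 2910 to 5625 genes. The background thus varied between settings as well. Without the 72 h A2 library alone 1 member passed in 18 to 24 h minus 10 to 16 h and 1 in the local comparison, and 370 genes in 30 to 48 h minus 18 to 24 h. For 72 h against 2 h alone 2910 genes and 1 member passed. With a pseudocount of 0.1 or 0.5, 0 or 1 members passed in 10 to 16 h minus 2 to 8 h. Quantile normalization gave 1 member in the local comparison, which had 688 genes for 30 h and 1278 for 54 h alone.

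Values that changed sign belonged to members that had not passed in that comparison, apart from the untested CYP1B1. Late against early, ARNT was −0.8979 for 72 h minus 2 h and −0.01389 for 66 and 72 h minus 2 and 4 h, and TIPARP −0.2849 for 72 h minus 2 h. In 10 to 16 h minus 2 to 8 h TIPARP was −0.2741 to 0.2123 over the left-out labels and −0.004679 without 6, 30 and 54 h. In 18 to 24 h minus 10 to 16 h CYP1A1 was −0.3147 to 0.01366 and AHRR −0.2889 to 0.2859 over the labels, and AHRR −0.06258 with a pseudocount of 0.1. In 30 to 48 h minus 18 to 24 h ARNT was −0.103 to 0.04405 over the labels, 0.02162 without the 3 libraries or the 42 h B1 library and 0.07641 without 6, 30 and 54 h. In 54 to 72 h minus 30 to 48 h AHR was −0.2869 to 0.6199, ARNT −0.6013 to 0.1291 and ARNT2 −0.001757 to 0.2371 over the labels, and ARNT 0.01507 without the 3 libraries and 0.05622 without 72 h A2. In the local comparison AHRR was −0.01217 to 0.4712 and ARNT2 −0.3128 to 0.07799 over the labels, ARNT2 0.02576 for 54 h alone and CYP1B1 0.3602 for 30 h alone. The cause of these changes was not tested.

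Deviations from the exposure means correlated at 0.0066 on average within a label and −0.00287 between labels, and 8 of 551 same-label pairs exceeded 0.1. Of 59 libraries, 32 correlated best with their own label, more than an even split over A1, A2 and B1 would give. A weak likeness within labels is therefore possible. With the replicate block, all 14 counts stayed within 1.5 times and all 48 member values kept their side of the threshold.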

Other observations

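The course of AHR was most like those of SNTB1, a syntrophin (r = 0.91), ACY1, an aminoacylase (0.91), and STX3, a syntaxin (0.91), over 20 exposure means. Late against early, the mean of SNTB1 was 4.03 against 24.6 TPM and that of ACY1 17.8 against 80.1 TPM. Among the genes most like TIPARP were EIF2S3 (r = 0.86), a subunit of a translation initiation factor, and UBE4B (0.83), a ubiquitin ligase, with means of 531 and 57.6 TPM early and 547 and 61.8 TPM late. Among those most like CYP1A1 were MARVELD2 (r = 0.82) and MYH14 (0.81), which averaged 13.0 and 5.74 TPM at 2 to 8 h. These genes were chosen for the likeness, so the correlations are descriptions.

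Among the other P450 enzymes, 2 of 14 tested passed over the course, where 36.8% of all genes did. CYP2C8 averaged 2.24 ± 2.11 TPM at 10 to 16 h and was listed at 0 in all 12 libraries of 54 to 72 h (limma adjusted p = 0.020 over the course). CYP7B1, an oxysterol hydroxylase, was highest in the 30 to 48 h window (10.5 ± 5.68 TPM; SD, n = 11), against 3.54 ± 2.85 TPM early and 4.81 ± 4.01 TPM late (SD, n = 12 each; limma adjusted p = 0.011 over the course).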
